A study of Mus musculus with 12 samples.

Results

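The lysyl oxidase family was measured in 12 mouse retinas: all 5 genes, Lox, Loxl1, Loxl2, Loxl3 and Loxl4, were found by symbol among the 36131 genes of the count table, and each had a single row. The retinas came from C57BL/6J wildtype mice at postnatal day (P) 18, 1 library per animal and 4 animals per group. RA-PBS mice (animals 1 to 4) stayed in room air and received the placebo PBS. O2-PBS mice (animals 5 to 8) breathed 75% O2 from P7, returned to room air at P12, the end of exposure given in the labels, and received PBS. O2-IC100 mice (animals 9 to 12) had the same exposure and received IC100, a monoclonal antibody against the inflammasome adaptor ASC, at 10 µg/g. The labels give intraperitoneal injections at P12, P14 and P16 for placebo and antibody alike, whereas the study's text describes PBS as given into the vitreous. If that held for these retinas, injection route and antibody cannot be told apart between O2-PBS and O2-IC100. This is the oxygen-induced retinopathy (OIR) model, in which high oxygen obliterates retinal capillaries and new vessels grow after the return to room air.

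Lysyl oxidases are copper-dependent enzymes that leave the cell and oxidize lysine residues of collagen and elastin, the first step of the covalent crosslinks that give matrix its strength. Lox and Loxl1 are made as proenzymes that are cut outside the cell, whereas Loxl2, Loxl3 and Loxl4 share scavenger receptor domains in place of the long propeptide. In vessels they act on the wall and basement membrane, and several members are known hypoxia targets.

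One library stood apart before any test. Lens crystallin genes took 58.98% of the counts of O2-IC100 animal 10, against 1.25%, 4.50% and 1.44% in RA-PBS animals 2, 3 and 4 and at most 0.0158% in the other 8 retinas. All 20 lens markers on the list were detected in animal 10, its summed pigment epithelium markers were 7343 normalized CPM against 45.5 to 293 in the other 11 retinas, and its summed rod markers were 9651 against at least 33859. Normalized CPM are counts scaled by the usual CPM convention to a library size set by TMM over all 12 animals. This scale sets the genes shared by all retinas level, so levels in animal 10 are higher than its plain CPM. Total counts were 14907143 to 24438082 per retina, and 3 counts, the smallest number taken as detectable, corresponded to 0.144 to 0.379 normalized CPM. Results are given with and without animal 10.

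Loxl2, a known hypoxia target that acts on the collagen IV of basement membranes, had the highest level per kilobase of transcript in every retina except animals 3, 4 and 10, where Loxl1 was higher, and without animal 10 it gave the largest difference of the family in both comparisons with O2-PBS. In RA-PBS its levels were 21.6, 16.7, 23.0 and 11.2 normalized CPM in animals 1 to 4. In O2-PBS they were 66.7, 39.7, 43.2 and 44.9 in animals 5 to 8. In O2-IC100 they were 22.0, 43.4, 26.6 and 21.9 in animals 9 to 12. Every O2-PBS retina lay above every RA-PBS retina, and the 3 O2-IC100 retinas other than animal 10 lay below every O2-PBS retina and reached into the RA-PBS range.

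Loxl3, which also acts on matrix proteins outside the cell and is known for its part in palate and cartilage development, was lower in level. RA-PBS retinas had 4.77, 3.86, 4.39 and 3.32 normalized CPM. O2-PBS retinas had 7.36, 7.61, 8.99 and 8.15. O2-IC100 retinas had 5.64, 10.4, 7.10 and 4.85, the second of these being animal 10. The O2-PBS and RA-PBS groups did not overlap, and without animal 10 the O2-IC100 group lay between them, overlapping neither.

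Loxl4, the fourth paralog, had 5.10, 6.33, 9.05 and 6.32 normalized CPM in RA-PBS. It had 13.6, 10.7, 12.4 and 8.87 in O2-PBS and 7.67, 29.5, 6.96 and 5.79 in O2-IC100. The lowest O2-PBS retina, animal 8, lay just under the highest RA-PBS retina, animal 3, so these groups overlapped by a single retina on each side. The O2-IC100 retinas other than animal 10 lay below every O2-PBS retina and inside the RA-PBS range.

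The promoter of Loxl4 is shown for the hypoxia motifs it does and does not hold, and it is the 1 promoter of the family in the RefSeq table at hand. It lies at chr19:42612807-42613056 (GRCm38.p6, minus strand) and covers the 250 bases before the start of the gene, with a GC content of 76.0%. Capitals mark the only match to a hypoxia response element core, GCGTG read on the other strand, 162 bases before the start.
Loxl4 promoter: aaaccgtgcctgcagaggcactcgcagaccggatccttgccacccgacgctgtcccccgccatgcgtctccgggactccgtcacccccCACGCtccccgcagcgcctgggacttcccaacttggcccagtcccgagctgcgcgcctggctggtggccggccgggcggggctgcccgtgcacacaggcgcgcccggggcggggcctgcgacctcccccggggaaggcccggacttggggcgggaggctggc
Both strands were searched. GCGTG occurred in 28.1% of 32817 promoter windows of the same length, so a match is common, and the other core, ACGTG (16.6% of windows), was not matched. The GC box GGGCGG matched at 3 places (32.7% of windows hold at least 1), CAGAC, the SMAD binding element, at 1 (42.2%), and the AP-1 site TGANTCA at none (6.75%).

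Loxl1, the family member tied to elastic fibre upkeep, had 5.67, 6.81, 17.5 and 9.90 normalized CPM in RA-PBS. It had 10.1, 6.67, 7.52 and 6.26 in O2-PBS and 8.14, 174, 7.34 and 7.70 in O2-IC100. The groups overlapped throughout, with 1 very high value in animal 10. Lox, the founding member, was the least abundant at 0.79, 0.82, 2.22 and 1.32 in RA-PBS, 3.38, 2.09, 1.30 and 2.11 in O2-PBS, and 1.76, 5.68, 1.58 and 1.76 in O2-IC100. Its lowest raw value was 14 counts, in RA-PBS animal 1, so the sampling error of single retinas was larger for Lox than for the others.

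**Figure D1:**
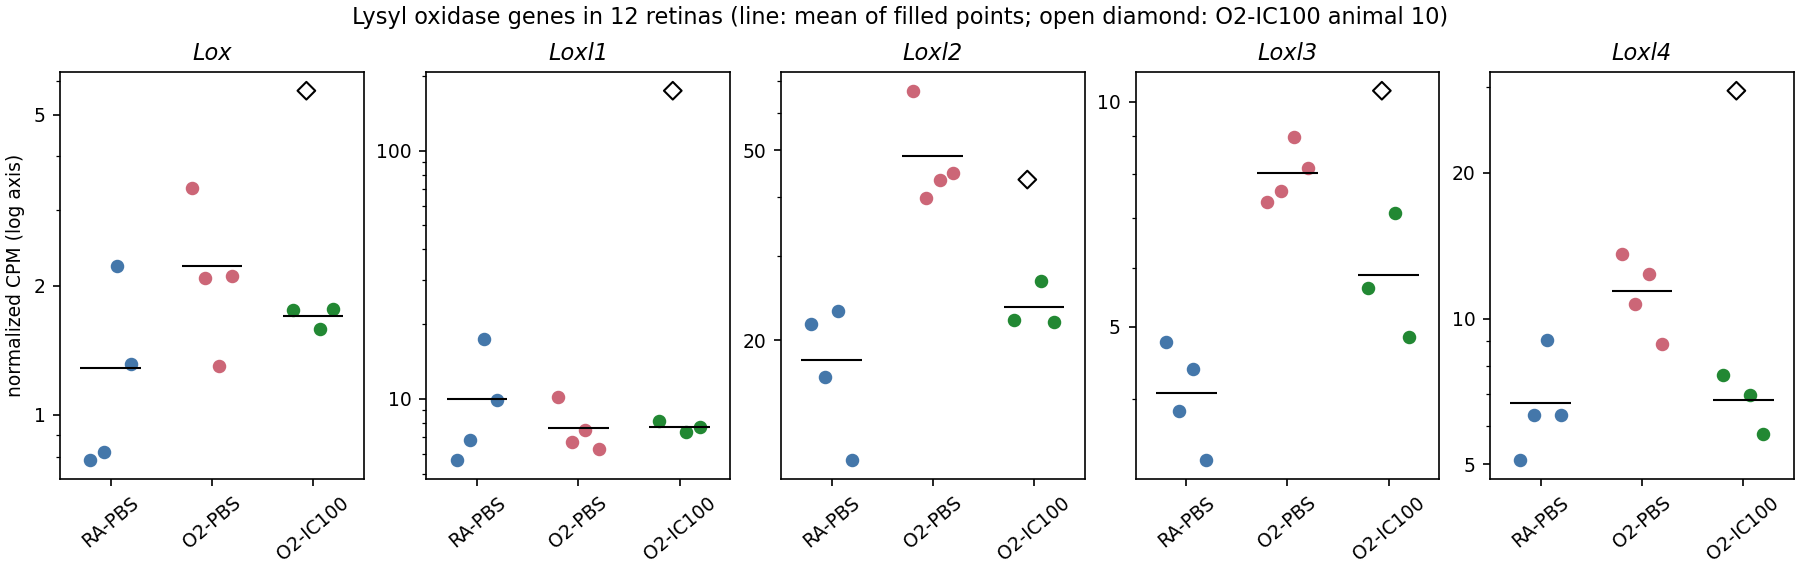
Normalized CPM (log axis) of the 5 genes in each retina by group, with the line at the mean of the filled points and O2-IC100 animal 10 as an open diamond. Loxl2 and Loxl3 in O2-PBS sit above all RA-PBS retinas, while Loxl1 in animal 10 reaches 174.

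Exposure was the first comparison, O2-PBS against RA-PBS. A gene was called at a fold change of at least 1.5, p under 0.05 and adjusted p under 0.1, with edgeR's quasi-likelihood test and Benjamini-Hochberg adjustment over all genes tested. With all 12 animals, 1 of the 5 genes was called higher, Loxl2, against 0.782% of the 16489 genes tested. None was called lower (0.0243% of all genes). Without animal 10, 3 of the 5 were called higher, against 4.09% of 16688 genes. The 3 were Loxl2, Loxl3 and Loxl4, which the study itself named among genes it picked from these same retinas, so their direction is not independent evidence. Retinas of O2-PBS all lay above those of RA-PBS in 2 of the 5, Loxl2 and Loxl3, against 7.86% of all genes tested.

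Loxl2 rose 2.68-fold. Its log2 fold change without animal 10 was 1.42 (SE 0.21), with an edgeR adjusted p of 0.00138 and a 95% interval of 0.97 to 1.87. Over all 12 animals the value was again 1.42 (SE 0.29) and the edgeR adjusted p was 0.0623. That second call was lost when any 1 of animals 1 to 8 was left out, with adjusted p-values of 0.106 to 0.231, whereas without animal 10 it held in all 11 further omissions, at log2 fold changes of 1.23 to 1.56.

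Loxl3 was called only in the fit without animal 10. Its log2 fold change was 0.97 in both fits, with an edgeR adjusted p of 0.00331 (SE 0.17) without animal 10 and 0.137 (SE 0.24) with it. Loxl4 followed the same course at 0.76, with an edgeR adjusted p of 0.0221 without animal 10 and 0.938 with it. The fold changes were equal because animal 10 is in neither group, and it is the SE that differed, since each fit estimates the dispersion of a gene over all 3 groups.

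Lox and Loxl1 were not called in either fit. For Lox the log2 fold change was 0.78, with a 95% interval of −0.0017 to 1.57 and an edgeR adjusted p of 0.230 without animal 10. Leaving out RA-PBS animal 3 as well gave 1.18 and an adjusted p of 0.0527, a call. For Loxl1 the value was −0.38, with an interval of −0.999 to 0.24. Without RA-PBS animal 3 it was 0.03.

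Lens, pigment epithelium and fibroblast markers moved with Loxl1 inside RA-PBS. The order of the 4 retinas by Loxl1, animals 1, 2, 4 and 3, was their order by crystallin share, which ran from 0.00315% to 4.50%. Lox had the same order, and Loxl4 was likewise lowest in animal 1 and highest in animal 3. Loxl2 and Loxl3 did not have this order. Summed markers of fibroblasts of sclera, choroid and meninges were 23.8, 28.8, 102 and 53.6 normalized CPM in animals 1 to 4, again in that order. None of the 7 was at 0, but Dcn and Lum had 1 count each in animal 1. Pigment epithelium markers summed to 102, 233, 293 and 253 in animals 1 to 4, in that order too, and to 45.5 to 121 in O2-PBS. Without animal 10, all 19 lens markers tested and 5 of 7 pigment epithelium markers were called lower in O2-PBS, beside 2.18% of all genes. In O2-PBS these fibroblast markers summed to 48.9 to 71.9, with 1 of 7 at 0 in animals 5 and 7, and lens markers to 28.7 to 146. With the crystallin level as a covariate the Loxl1 difference without animal 10 was 0.38 with an edgeR adjusted p of 0.473. Loxl2, Loxl3 and Loxl4 were called in that fit at 1.21, 0.79 and 1.10. Among the retinas fitted, only RA-PBS animals 2, 3 and 4 had high crystallin shares. The adjusted differences therefore lean on RA-PBS animal 1, and this fit cannot tell crystallin level and exposure apart.

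Markers of vessels moved in the same direction as Loxl2. The 11 endothelial markers summed to 245 to 345 normalized CPM in RA-PBS and 477 to 544 in O2-PBS, and 9 of 11 were called higher without animal 10. The 9 markers of pericytes and smooth muscle summed to 174 to 205 in RA-PBS and 356 to 521 in O2-PBS, with 7 called higher. All 8 markers of tip cells and tufts, the sprouting cells of new vessels, were called higher, from sums of 20.6 to 36.7 up to 106 to 209. In this fit without animal 10, 4.09% of all genes tested were called higher. No endothelial or mural marker was at 0 in any retina, and 2 tip cell markers were at 0 in RA-PBS animal 1. In whole retina, more cells of a type and more RNA per cell cannot be told apart, and the part of vessel cells in the Loxl2 difference was not tested.

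Set against the endothelial sum, the family split. Loxl2 was 4.58 to 6.80 CPM per 100 endothelial CPM in RA-PBS and 8.25 to 12.6 in O2-PBS, groups that did not overlap. The Loxl3 ratio was 1.22 to 1.38 in RA-PBS and 1.38 to 1.83 in O2-PBS, ranges that barely separated. The Loxl4 ratio was 1.48 to 2.67 and 1.63 to 2.55, ranges that overlapped almost fully. Against the mural sum the Loxl2 ratio was 5.50 to 11.6 in RA-PBS and 8.62 to 14.7 in O2-PBS, which overlapped. These ratios are descriptions and were not tested.

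**Figure D2:**
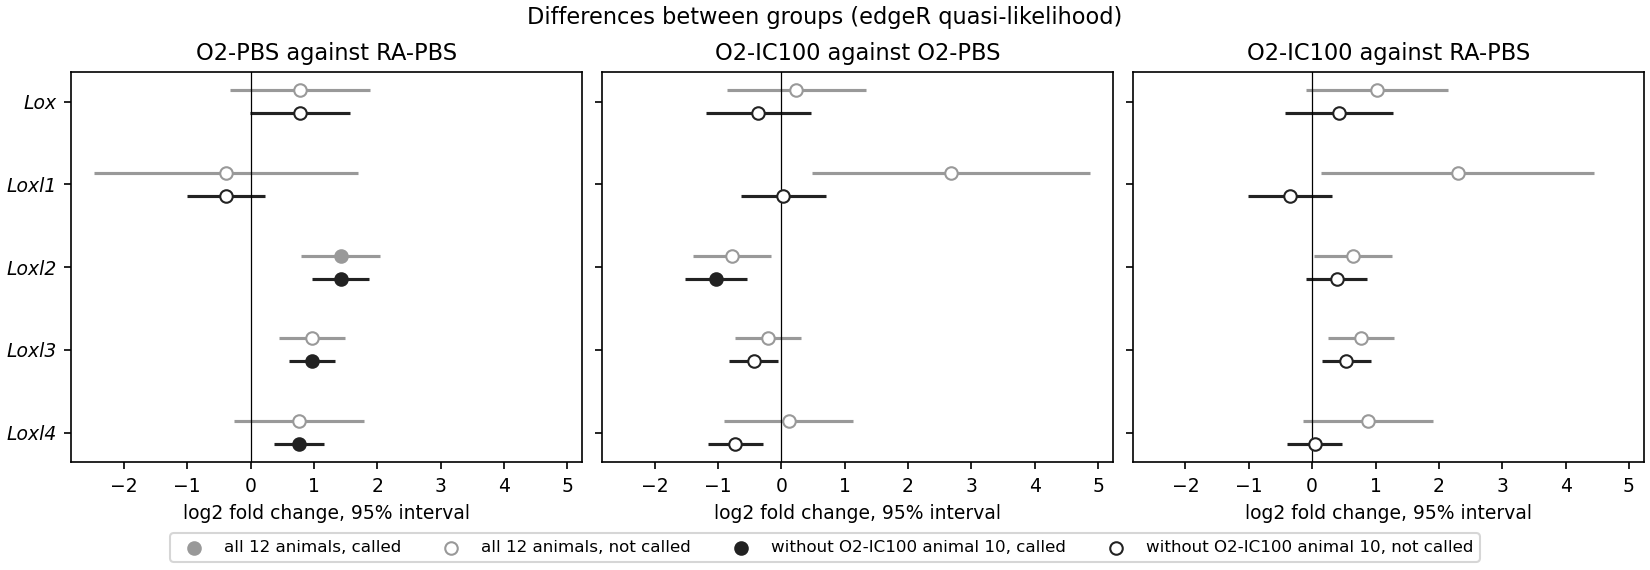
Log2 fold change (x axis) with its 95% interval for each gene in the 3 comparisons, in grey for all 12 animals and in black without O2-IC100 animal 10, filled where called. Loxl2 is filled in both fits for O2-PBS against RA-PBS and in black alone, at −1.03, for O2-IC100 against O2-PBS.

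Treatment was the second comparison, O2-IC100 against O2-PBS, and it shares the O2-PBS retinas with the first. With all 12 animals edgeR called none of the 5 genes, and 0% of all genes tested. At an unadjusted p under 0.05, 2 of the 5 passed, Loxl1 upward and Loxl2 downward, against 16.9% of all genes. In this fit of all 12 animals DESeq2 and limma voom likewise called 0 of the 5. Without animal 10, 1 of the 5 was called lower, Loxl2, against 0.731% of all genes tested. The study listed Loxl2, Loxl3 and Loxl4 in a cluster of these same retinas that it described as induced by oxygen and corrected by IC100. Their direction in this comparison is therefore not independent evidence either.

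Loxl2 fell 2.04-fold without animal 10. Its log2 fold change was −1.03 (SE 0.22), with a 95% interval of −1.52 to −0.55 and an edgeR adjusted p of 0.0746. When animal 10 was kept the value was −0.78 and the edgeR adjusted p was 0.287. The call without animal 10 was lost on leaving out O2-PBS animal 5, 7 or 8 or O2-IC100 animal 9, 11 or 12, with log2 fold changes of −1.13 to −0.86 and adjusted p-values of 0.12 to 0.289.

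Loxl4 and Loxl3 had negative log2 fold changes and were not called. For Loxl4 the log2 fold change without animal 10 was −0.73 (SE 0.20), with an interval of −1.16 to −0.29 and an edgeR adjusted p of 0.125. Its fold change of 1.66 and its p-value passed, and the adjusted p did not. DESeq2 called it, with an adjusted p of 0.023. For Loxl3 the value was −0.44, with an interval of −0.82 to −0.05 and an edgeR adjusted p of 0.226. In Loxl2, Loxl3 and Loxl4, all 3 O2-IC100 retinas lay below all 4 O2-PBS retinas, a pattern that 16% of all genes tested showed in that direction.

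Loxl1 did not differ beyond its spread without animal 10, at 0.03 with an interval of −0.64 to 0.70. Lox was at −0.36 with an interval of −1.20 to 0.47. With animal 10 included Loxl1 was at 2.68 (SE 1.00), so the size of the Loxl1 difference rested on that retina.

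Some vessel markers were called lower in the same comparison. Without animal 10, endothelial markers summed to 351 to 395 normalized CPM in O2-IC100, pericyte and smooth muscle markers to 311 to 374 and tip cell markers to 61.1 to 82.2. Of these markers 2 of 11, 2 of 9 and 2 of 8 were called lower, beside 0.731% of all genes. The endothelial and tip cell sums lay below those of every O2-PBS retina, whereas the mural sums overlapped with O2-PBS. The Loxl2 ratio was 5.54 to 6.96 CPM per 100 endothelial CPM, inside or next to the RA-PBS range and below the O2-PBS range.

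The third comparison, O2-IC100 against RA-PBS, called none of the 5 genes in either edgeR fit, nor did DESeq2 or limma voom. At an unadjusted p under 0.05, 3 of the 5 passed with all 12 animals and 1 without animal 10, against 13.2% and 15.6% of all genes. The 1 was Loxl3, at 0.54 with an interval of 0.15 to 0.93 and an edgeR adjusted p of 0.169, and its O2-IC100 retinas lay above all RA-PBS retinas, as did those of 5.84% of all genes tested. Loxl2 was at 0.39 with an interval of −0.09 to 0.87. Loxl4 was at 0.04 with an interval of −0.40 to 0.47, which leaves room for a difference of either sign.

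On the TMM scale animal 10 was the highest of its group in every family member, which did not hold in plain CPM over all counts. In plain CPM Loxl2 was 14.1 in animal 10 against 29.7 and 25.1 in animals 11 and 12, with animal 9 next to the latter, and Loxl3 was 3.35 against 6.41, 7.93 and 5.60, so animal 10 was the lowest of its group in both. Its Loxl1 count was 1380, against 101 to 315 in the other 11 retinas, and its plain CPM over all counts was 56.5. After removal of crystallin counts from the library size it was 138. Loxl4 had 234 counts, a plain CPM of 9.58 and 23.3 without crystallins, and Lox had 45 counts, a plain CPM of 1.84, below the 1.99 and 2.03 of animals 9 and 12, and 4.49 without crystallins. Genes of fibroblast matrix were high in the same library. Col1a1, a fibroblast marker on the list, was at 142 normalized CPM, against 1.35 to 11.2 elsewhere, and Fbn1, a microfibril gene, at 279 against 17.1 to 60.8. Its endothelial markers summed to 68.4, the lowest of all 12 retinas. The part that lens, pigment epithelium or fibroblast RNA had in its family levels was not tested.

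**Figure D3:**
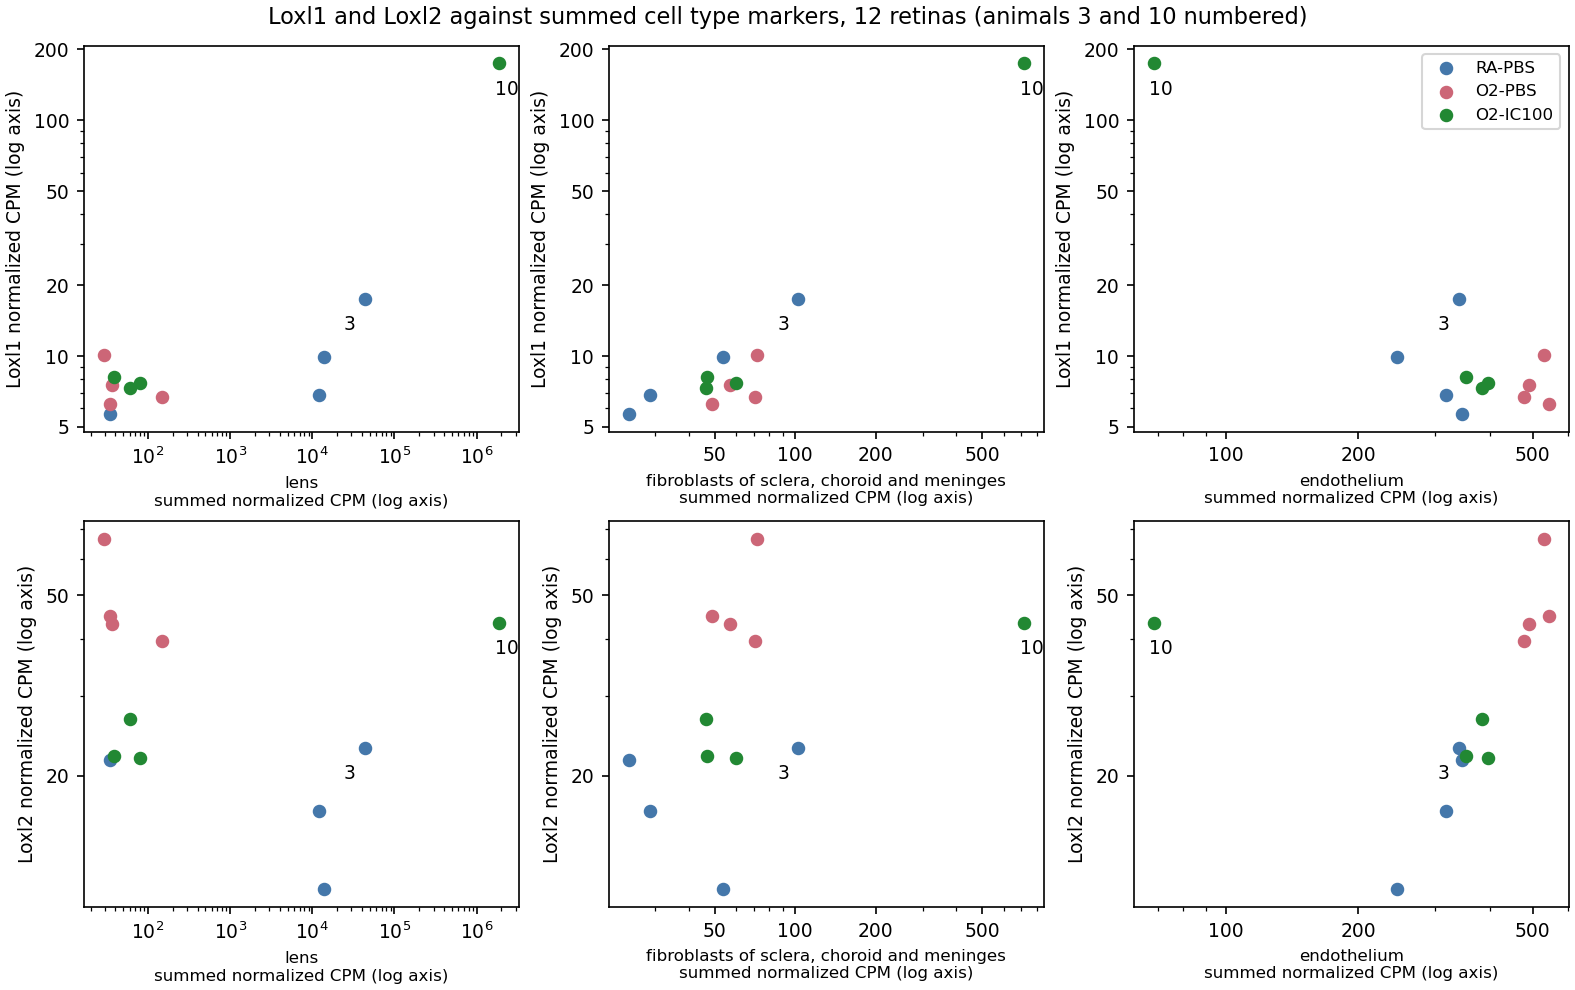
Normalized CPM of Loxl1 (upper row) and Loxl2 (lower row) against the summed normalized CPM of markers of lens, of fibroblasts and of endothelium (all axes log), 1 point per retina coloured by group. Animal 10 is highest for lens markers, fibroblast markers and Loxl1 and lowest for endothelial markers, and the 4 O2-PBS retinas are highest for endothelial markers and, except for animal 10, for Loxl2.

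Levels can be compared between members only per length. Divided by the longest coding transcript of each gene (4741 bases for Lox, 3297 for Loxl1, 5316 for Loxl2, 4098 for Loxl3 and 3738 for Loxl4), RA-PBS means were 3.41 CPM per kilobase for Loxl2 (range 2.11 to 4.33), 3.02 ± 1.61 for Loxl1, 1.79 ± 0.45 for Loxl4, 0.996 ± 0.154 for Loxl3 and 0.271 ± 0.141 for Lox (SD, n = 4). Loxl2 and Loxl1 did not differ beyond their spread in this order, nor did Loxl1 and Loxl4, while Loxl4, Loxl3 and Lox were separated from each other. In O2-PBS the order was Loxl2 at 9.15 ± 2.30, Loxl4 at 3.05 ± 0.55, Loxl1 at 2.32 ± 0.53, Loxl3 at 1.96 ± 0.18 and Lox at 0.468 ± 0.181 (SD, n = 4), where Loxl2 stood apart above and Lox below, Loxl4 overlapped with Loxl1 and Loxl1 with Loxl3. In O2-IC100 without animal 10 it was Loxl2 at 4.42 ± 0.51, Loxl1 at 2.34 ± 0.12, Loxl4 at 1.82 ± 0.25, Loxl3 at 1.43 ± 0.28 and Lox at 0.359 ± 0.022 (SD, n = 3), where Loxl4 and Loxl3 overlapped.

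The shares of Loxl2 and Loxl1 in the family total lay apart in O2-PBS from those of the other groups. Loxl2 held 26.7% to 47.9% of the family total per kilobase in RA-PBS, 50.2% to 57.7% in O2-PBS and 39.8% to 44.9% in O2-IC100 without animal 10. Loxl1 held 20.3% to 39.0%, 12.5% to 14.1% and 19.9% to 24.4%. O2-IC100 without animal 10 overlapped with RA-PBS in both shares. RA-PBS animal 1, with the lowest crystallin share of its group, had 47.9% Loxl2 and 20.3% Loxl1, the RA-PBS values nearest to O2-PBS. The part of lens or fibroblast RNA in these shares was not tested. These shares add up to 100 in each retina, so a higher share of Loxl2 lowers the others by construction. In animal 10 Loxl1 held 72.7% and Loxl2 11.2%. The family total was 7.89 to 13.6 CPM per kilobase in RA-PBS, 14.7 to 21.8 in O2-PBS and 9.55 to 11.2 in O2-IC100 without animal 10, against 72.6 in animal 10.

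**Figure D4:**
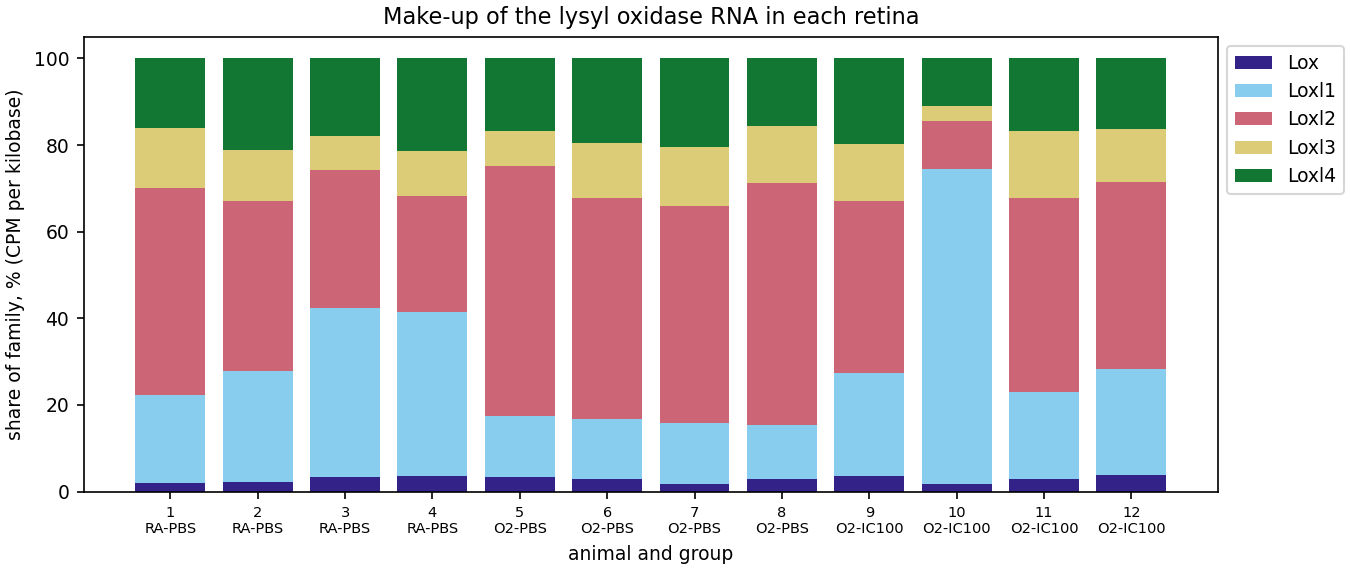
Share of the family total held by each gene in each retina (percent of summed CPM per kilobase), animals 1 to 12 with their group. Loxl2 makes up at least 50.2% in all O2-PBS retinas, and Loxl1 makes up 72.7% in animal 10.

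Across the 11 retinas without animal 10, the members fell into unlike patterns. Loxl2 and Loxl3 were most alike (r = 0.89 of log2 CPM, 11 retinas), followed by Loxl2 and Loxl4 (0.81) and Loxl3 and Loxl4 (0.70). Loxl1 was unlike Loxl2 (−0.11) and Loxl3 (−0.32). Among 15148 genes with a mean of at least 1 CPM, the 3 most like Loxl2 were Fxyd5, Muc2 and Cdh23 (0.98 each). The genes most like Loxl3 were Mcm3 (0.95), Cmklr1 and Mall (0.94 each), and those most like Loxl4 were Bmp1, Mthfd1l and Gm45799 (0.95 each). For Loxl1 they were Mlph (0.91), Pip5kl1 and Mme (0.90 each), and for Lox they were Col18a1 (0.93), Asap3 (0.92) and Nkd2 (0.91). The retinas share their groups, so genes that differ between groups are alike by that alone, and the values are a description.

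Bmp1, the proteinase that cuts the Lox proenzyme, belonged to the genes around the family, which were taken as 7 lists of 97 genes, 91 of them tested. Without animal 10, 20 of the 91 were called higher and 1 lower in O2-PBS against RA-PBS, beside 4.09% higher and 2.18% lower over all genes. When animal 10 was kept 6 were called higher and none lower. Collagen substrates had 6 of 15 called higher with a median log2 fold change of 0.45, and genes that activate the proenzyme had 4 of 9 higher and 1 lower with a median of 0.60, against a median of −0.01 over all genes. Elastic fibre genes had 1 of 17 higher with a median of 0.07, collagen modifying enzymes and chaperones 2 of 15 (0.16), copper delivery and other copper amine oxidases 1 of 8 (0.07), upstream regulators 3 of 15 (0.14) and hypoxia targets 3 of 12 (0.44).

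Among substrates, the fibrillar collagens Col5a2 and Col3a1 rose by log2 fold changes of 2.06 and 1.68, and the basement membrane collagen Col4a1 by 1.36, with edgeR adjusted p-values of 0.0003, 0.0062 and 0.0392 in the fit without animal 10. Eln, which encodes elastin, was at −0.48 with an edgeR adjusted p of 0.0403, under the minimum fold change and so not called, and Fbln5, an elastic fibre scaffold, was at −0.03. Emilin1 was the 1 elastic fibre gene called, at 0.70.

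The activation list held genes on both sides. Bmp1 rose by 0.84, Fn1, the fibronectin that binds the proenzyme and Bmp1, by 1.78, and Pcolce, an enhancer of Bmp1 cleavage of procollagen, by 1.84. Pcolce2, the related enhancer, fell by 0.97. Serpinh1, the collagen chaperone HSP47, rose by 1.41 and Crtap, a part of the prolyl 3-hydroxylase complex, by 0.62. Aoc3, a vascular copper amine oxidase outside the family, rose by 1.22, while Atp7a, the pump that loads copper in the secretory pathway, was at 0.50 and not called.

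Of the regulators, Tgfb1, its receptor gene Tgfbr2 and the transcription factor Snai1 rose by 1.02, 0.90 and 1.64, and Hif1a RNA was at −0.07. Snai1 was close to the level taken as detectable, with means of 0.26 normalized CPM in RA-PBS and 0.81 in O2-PBS. Its lowest RA-PBS retina, at 0.097, lay below that level, so the size of the Snai1 rise rests on few counts. Hif1a protein is controlled mainly after translation, so its RNA does not measure its activity. The hypoxia targets Adm, Egln3 and Vegfa rose by 3.51, 1.89 and 1.19. Col3a1, Fn1 and Aoc3 are among the genes that the study picked from these retinas, so their direction is not independent evidence either. The study followed Vegf by qRT-PCR, with IC100 given into the vitreous, and does not state that these retinas were used.

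In O2-IC100 against O2-PBS without animal 10, 8 of the 91 were called lower and none higher, beside 0.731% lower and 0.216% higher over all genes. When animal 10 was kept edgeR called none of the 91. The 8 were Col3a1 (−1.50), Fn1 (−1.53), Pcolce (−1.22), Aoc3 (−0.87), Tgfbr2 (−0.80), Adm (−1.23), Egln3 (−0.94) and Plod1 (−0.69), a lysyl hydroxylase of collagen that was named after its values were seen. Col3a1, Fn1 and Aoc3 are among the genes the study gave as corrected by IC100 in these retinas, so their fall is not independent evidence. Medians were −0.53 for collagen substrates, −0.58 for the activation list, −0.42 for elastic fibre genes (0 of 17 called), −0.22 for collagen modifying enzymes and chaperones, −0.07 for copper genes, −0.24 for upstream regulators and −0.26 for hypoxia targets, against 0.00 over all genes. In O2-IC100 against RA-PBS without animal 10, 7 were called higher, among them Col5a2 at 1.31 and Vegfa at 0.77, and 1 lower, Pcolce2 at −1.19, beside 0.947% higher and 0.617% lower over all genes.

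**Figure D5:**
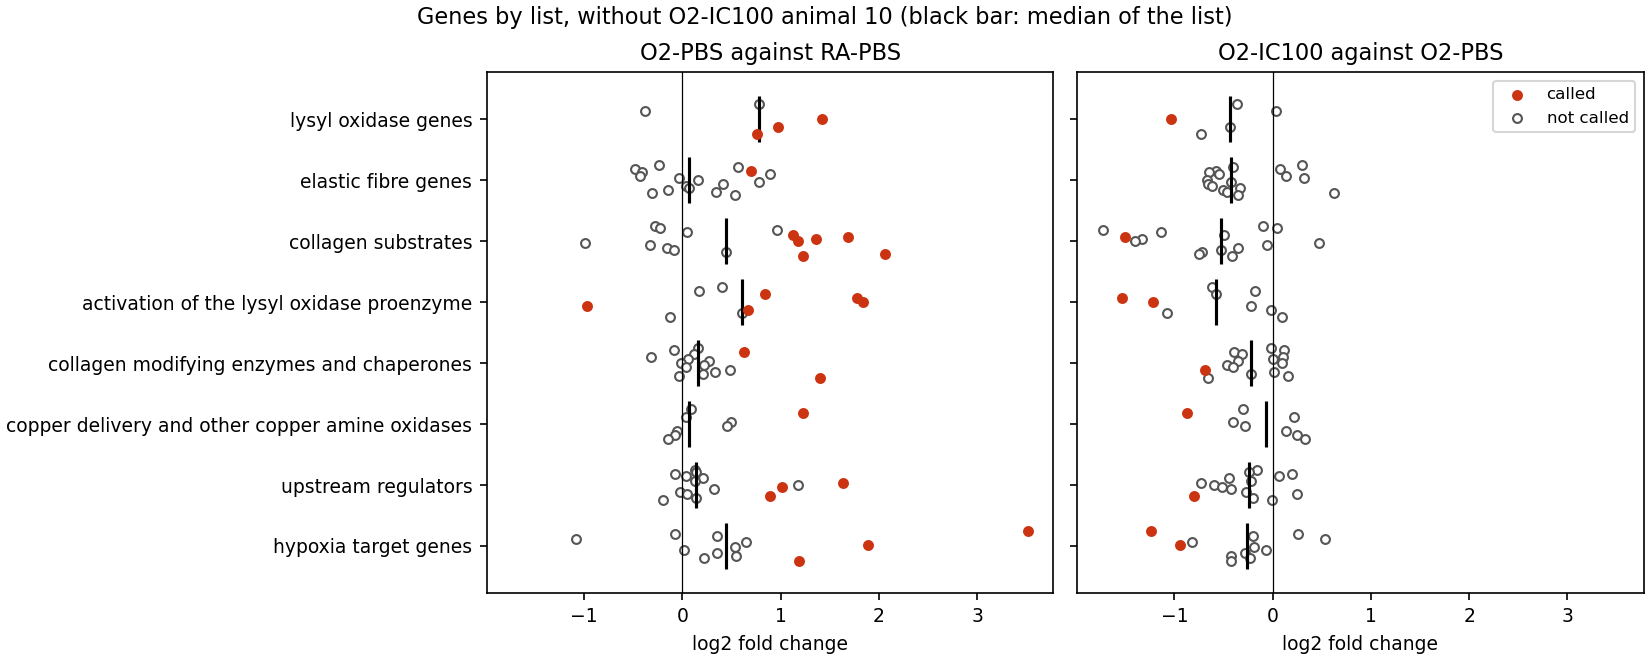
Log2 fold change (x axis) of each tested gene by list without O2-IC100 animal 10, for O2-PBS against RA-PBS and O2-IC100 against O2-PBS, filled where called, with a black bar at the median of the list. Collagen substrates and the activation list have medians of 0.45 and 0.60 on the left and of −0.53 and −0.58 on the right.

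Reads of neighbouring genes could touch these values. Loxl2 and Loxl3 had estimated counts that were not whole numbers, so reads were shared out between transcripts of more than 1 gene. Htra2, a mitochondrial protease gene on the opposite strand, overlaps the end of Loxl3 in the annotation. Htra2 was at 22.1 to 31.2 normalized CPM in the 11 retinas without animal 10. It was at 22.1 to 24.7 in O2-PBS, which overlapped with 23.3 to 31.2 in RA-PBS. The part of shared reads in the Loxl3 values was not tested. Whether counting used strand is not given in the sources used here.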

How the data were processed

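RNA of 12 P18 mouse retinas was poly(A) selected and sequenced as 150 bp paired-end reads, per the labels. The authors pseudoaligned the reads to GRCm39_104 with Kallisto and summed transcripts per gene with tximport (versions not given in the sources used here), so the deposited values are expected counts per gene, not scaled to library size. Of the deposited counts 42.2% are not whole, and they were rounded here.

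Analysis was in R 4.3.3 with edgeR 4.0.16: TMM normalization, filterByExpr, and a robust quasi-likelihood model of the 3 groups with no covariate, fitted to all 12 animals (16489 genes) and without O2-IC100 animal 10 (16688 genes). Tests were two-sided with Benjamini-Hochberg adjustment over all genes tested, at the thresholds of the study's methods. Printed normalized CPM are on the TMM scale of all 12 animals. DESeq2 1.42.0, limma 3.58.1 (voom), other normalizations, filters, thresholds and covariates, and each animal left out in turn were the alternatives. The procedure was tested on simulated data shaped on the retinas without animal 10, with changes placed only in genes above the level of Lox. That test therefore did not cover a lens-rich library or a change in a gene as low as Lox. The tests set each group difference against the spread between animals within groups, estimated per gene over the groups fitted together.

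Genes named were the 5 members, then from each list the 3 with the largest absolute log2 fold change among those called between O2-PBS and RA-PBS without animal 10, plus Eln, Fbln5, Col3a1, Col4a1, Bmp1, Fn1, Hif1a, Tgfb1, Atp7a, Aoc3 and Vegfa, and for each member the 3 genes most like it by Pearson's r. The members and lists were chosen with earlier results of these data known. In the lists, Ero1a and Ca12 are not symbols of the count table, and Tll2, Adamts14, Aoc1 and Twist1 did not pass the filter. Transcript lengths are of GENCODE M21 (GRCm38), another build than that of the counts.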

Additional observations from a re-analysis of the deposited data

Results flagged for a closer look

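O2-IC100 animal 10 stood far from the other 3 retinas of its group in 3 of the 5 genes: the gap to the nearest of them, divided by the range of the group, was above Dixon's 95% critical value for 4 samples. Loxl1 was at 174.2 normalized CPM in animal 10 and the next retina at 8.14, a gap of 0.995 of the range. Loxl4 was at 29.5 with the next at 7.67 (0.921), and Lox at 5.68 with the next at 1.76 (0.956). In all, 15 groups were examined (5 genes in 3 groups), and chance flags about 1 in 20. The flagged values all belong to the library in which crystallin genes took 58.98% of the counts.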

How the results depend on the processing

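Lox had the fewest counts of the family, 14 to 56 per retina, and the smallest detectable change was not tested. Groups of 4, or 3 without animal 10, leave several calls near the threshold. No paired analysis was possible because animals 1 to 12 carry separate numbers that no groups share.

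The number of family genes called in O2-PBS against RA-PBS with all 12 animals was 1. It was 2 with DESeq2, limma voom or upper quartile normalization, 3 with only the 2 groups compared, 5 with the crystallin covariate, and 0 with total counts only or at an adjusted p under 0.05, and with 1 animal left out it ranged from 0 to 3. In O2-IC100 against O2-PBS with all 12 animals it was 0, and 2 with a Y-linked covariate, with 0 to 1 on leaving out an animal. In O2-IC100 against RA-PBS with all 12 animals it was 0, and 5 with the crystallin covariate. Without animal 10, the 3 calls of O2-PBS against RA-PBS became 2 to 4 over all alternatives (Loxl4 lost with the Y-linked covariate, at an adjusted p of 0.104). The 1 call of O2-IC100 against O2-PBS became 2 with DESeq2, the crystallin covariate or only the 2 groups compared, and 0 with no filter on low counts, the Y-linked covariate or an adjusted p under 0.05, with 0 to 2 on leaving out an animal. No family gene was called in O2-IC100 against RA-PBS without animal 10 under any alternative run. These counts stand without the share of all genes called under the same alternatives, so they do not set the family apart from other genes.

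Directions turned for Lox, Loxl1 and Loxl4. With all 12 animals, Loxl1 in O2-PBS against RA-PBS was −0.38 and became 1.34 with the crystallin covariate, and ran from −0.58 to 0.028 on leaving out an animal. In O2-IC100 against O2-PBS, Lox was 0.24 and became −0.033 with voom and −0.38 with total counts only or with the crystallin covariate, and ran from −0.36 to 0.51 on leaving out an animal. There Loxl4 was 0.11 and became −0.38 with voom, −0.0063 with upper quartile normalization, −0.64 with total counts only and −0.63 with the crystallin covariate, and ran from −0.73 to 0.35. Loxl1 in O2-IC100 against RA-PBS ran from −0.35 to 2.74. Without animal 10, Loxl1 became 0.38 with the crystallin covariate in O2-PBS against RA-PBS and 0.38 in O2-IC100 against RA-PBS, from −0.38 and −0.35, and on leaving out an animal ran from −0.57 to 0.033 and from −0.54 to 0.055. In O2-IC100 against O2-PBS it ran from −0.052 to 0.18, and Loxl4 in O2-IC100 against RA-PBS from −0.068 to 0.20. The cause of these turns was not tested. Loxl2 and Loxl3 kept their direction in every comparison and alternative run.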
